A study of Ovis aries with 9 samples.

Results

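The insulin-like growth factor (IGF) system was examined at the RNA level in ovine granulosa cells (GCs), which line the ovarian follicle and nourish the egg cell, after culture at 3 concentrations of glucose. Its 10 members were the ligands IGF1 and IGF2, the receptors IGF1R and INSR, and the binding proteins IGFBP2, IGFBP3, IGFBP4, IGFBP5, IGFBP6 and IGFBP7. They were taken by gene symbol from the 39157 genes of the deposited expression table, and each symbol matched 1 entry. The control group (CON) received 0 mM glucose, the low group (LOW) 8.4 mM and the high group (HIGH) 33.6 mM for 24 h, with 3 libraries per group and 9 in all. All groups shared thin-tailed Han ewes aged about 1 year, follicles of 3 to 5 mm, and a step of 8 h in medium lacking both serum and glucose just before the treatment. Follicular cells from many ovaries were pooled before seeding, so the replicates were cultures and not separate animals, and p-values measure only the spread between these cultures. The question was whether glucose supply altered the RNA of IGF ligands, receptors and binding proteins.

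IGFs bind the tyrosine kinase receptor IGF1R, whose close relative INSR is the receptor for insulin, and both pass the signal through adaptor proteins to the PI3K-AKT and RAS-ERK relays. IGFBPs hold IGFs in the extracellular space with high affinity and limit or extend their action, except IGFBP7, which binds IGFs only weakly. In the follicle this system amplifies the response of GCs to follicle-stimulating hormone, and in ruminants the intrafollicular IGFBPs, IGFBP2, IGFBP4 and IGFBP5 among them, are lower in follicles selected to grow. No sequences are shown.

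Levels are given in FPKM, a unit that divides fragments by transcript length and by the depth of the library. By the factor that links the deposited tables, an FPKM of 1 stood for 48.0 to 71.3 fragments per kilobase over the 9 libraries. An FPKM of 0.1, the minimum for testing, therefore stood for only 4.80 to 7.13 fragments per kilobase. Of the 17 granulosa markers listed, 12 were matched and 9 of those had an FPKM of 1 or more in every library. FOXL2, CYP19A1, AMH, INHBB and LHCGR were not matched by symbol, so their levels are not known here. CYP11A1, the enzyme that starts steroid synthesis, stood at 135 to 198, whereas FSHR, the receptor for follicle-stimulating hormone, stayed at 0.218 to 0.564. All 11 stroma and smooth muscle markers had an FPKM of 1 or more in every library, and LUM, an extracellular matrix proteoglycan, reached 1815 to 2239. In HIGH versus CON, 4 of these 11 did not overlap and were higher in HIGH, with log2 fold changes of 1.54 for COL1A1 and 0.79 for COL1A2, both collagen I chains, 0.74 for PDGFRA and 0.31 for COL3A1, beside 0.01 for LUM. Of the 12 granulosa markers, 3 did not overlap and were lower in HIGH, at -0.56 for STAR, -0.55 for INHA and -0.33 for CYP11A1. Over all genes tested, 9.4% did not overlap in this comparison. The limma adjusted p of these 7 genes was 0.651. In HIGH versus LOW the same 7 did not overlap, and neither did GATA4, a granulosa marker that was higher in HIGH (0.71). That made 4 of 11 stroma and 4 of 12 granulosa markers, beside 18.9% of all genes tested. By sign alone, 7 stroma markers were higher and 4 lower in HIGH versus CON, with TAGLN at -0.49. Of the granulosa markers, 4 were higher and 8 lower there. Summed over the list, granulosa markers in CON, LOW and HIGH had 306 to 336, 259 to 284 and 232 to 289 FPKM, and stroma markers had 5353 to 6767, 5462 to 5776 and 4729 to 5890. In summed FPKM, theca markers stood at 5.13 to 6.79, leukocyte markers at 14.5 to 20.8, endothelial markers at 0.645 to 1.13 with CDH5 listed at 0, and oocyte markers at 0.560 to 1.16 with BMP15 listed at 0. Fewer cells of a type and less RNA per cell cannot be told apart in such bulk samples, and the part of these markers in the results below was not tested. TXNIP, a gene known to respond to glucose, ranged over 76.2 to 103 FPKM in CON, over 211 to 218 in LOW, and over 180 to 215 in HIGH, and its log2 fold changes of 1.38 in LOW versus CON and 1.21 in HIGH versus CON had limma adjusted p-values of 0.112 and 0.159.

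The ligands were at the bottom of the family. IGF1 (ENSOARG00000015856, chromosome 3, 171268400 to 171327752, genome build not given in the sources used here, as for all coordinates) was listed at 0 in all 9 libraries, in its only transcript model, and was not tested. IGF2 (ENSOARG00000003586, chromosome 21, 48655290 to 48680999), the fetal growth factor of the pair, had an FPKM of 0.180, 0.0577 and 0 in CON, 0.130, 0.122 and 0.0473 in LOW, and 0.319, 0.187 and 0.0437 in HIGH. The 3 groups overlapped, 5 of the 9 libraries reached the FPKM of 0.1, and such values rest on few fragments. On the log2(FPKM + 0.1) scale, used for all fold changes here, IGF2 differed by 0.68 (SE 0.52) in HIGH versus CON and by 0.32 (SE 0.52) in LOW versus CON, within the spread between replicates.

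Both receptors were readily measured, and their means were highest in HIGH without passing the test. IGF1R (ENSOARG00000010005, chromosome 18, 6919822 to 7219744) had an FPKM of 26.0, 15.1 and 7.59 in CON, 16.4, 12.2 and 11.5 in LOW, and 40.6, 27.8 and 15.2 in HIGH. The lowest HIGH library lay below the highest library of CON and of LOW, so HIGH overlapped both groups. The log2 fold change was 0.88 in HIGH versus CON (SE 0.41, 95% interval -0.05 to 1.81, adjusted p = 0.651). In HIGH versus LOW it was 0.90 (SE 0.41, interval -0.03 to 1.83, adjusted p = 0.632), and in LOW versus CON it was -0.02 (SE 0.41, interval -0.95 to 0.91). Both HIGH intervals reach from about no difference to well past the call limit of 1 on the log2 scale.

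INSR (ENSOARG00000000285, chromosome 5, 13733596 to 13879145) had an FPKM of 28.2, 19.3 and 13.5 in CON, 18.9, 16.7 and 16.1 in LOW, and 31.1, 28.3 and 18.2 in HIGH. After scaling, its libraries fell in the same order as those of IGF1R, and again HIGH overlapped both groups. INSR differed by 0.42 in HIGH versus CON (SE 0.23, interval -0.11 to 0.94), by 0.49 in HIGH versus LOW (SE 0.23, interval -0.04 to 1.01) and by -0.07 in LOW versus CON (SE 0.23, interval -0.59 to 0.46). The ratio of IGF1R to INSR within a library, which does not depend on how libraries are scaled, was 0.924, 0.784 and 0.561 in CON, 0.864, 0.730 and 0.716 in LOW, and 1.31, 0.983 and 0.832 in HIGH. By gene FPKM only HIGH replicate 1 had more IGF1R than INSR, and the groups overlapped. The gene value of IGF1R adds up its transcript models. In that library IGF1R-201 had 24.4 FPKM and the assembled model TCONS_00106071 had 14.2, beside 29.7 for INSR-201.

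**Figure D1:**
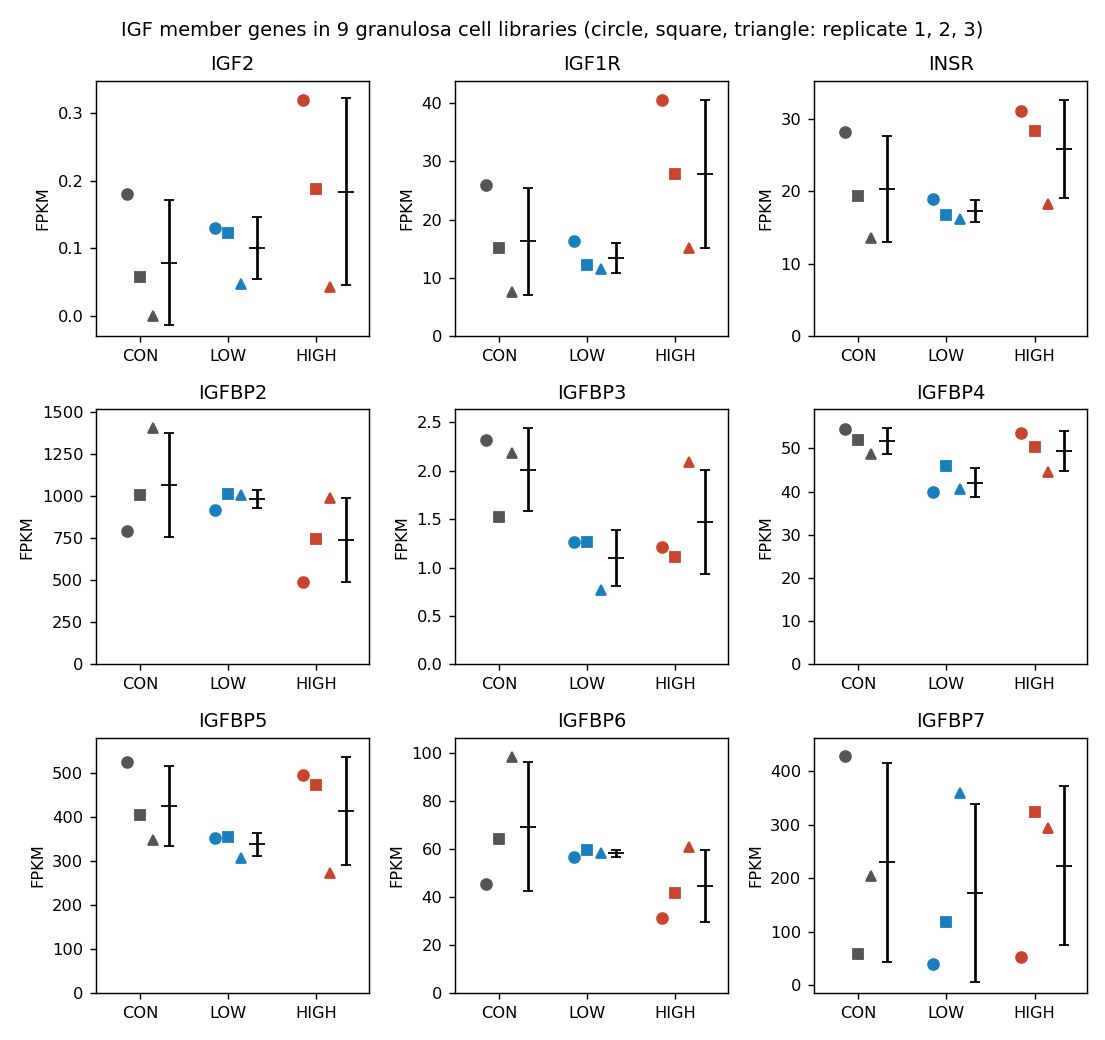
FPKM (vertical axes, linear) of the 9 members listed above 0, by glucose group (horizontal axes). Circles, squares and triangles are replicates 1, 2 and 3, and black bars give the mean ± SD of 3 libraries; CON and LOW do not overlap for IGFBP3 and IGFBP4, whereas IGFBP7 ranges from 40.6 to 427 with no separation of the groups.

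IGFBP2 was the most abundant member, with a mean of 929 FPKM over the 9 libraries. IGFBP2 (ENSOARG00000019417, chromosome 2, 217607092 to 217636866) is a major binding protein of follicular fluid, and its FPKM was 791, 1005 and 1402 in CON, 920, 1015 and 1008 in LOW, and 490, 743 and 989 in HIGH. The lowest 2 libraries were in HIGH, but HIGH replicate 3 lay within the range of both other groups. The log2 fold change was -0.50 in HIGH versus CON (SE 0.32, interval -1.22 to 0.22), -0.52 in HIGH versus LOW (SE 0.32, interval -1.25 to 0.20) and 0.02 in LOW versus CON (SE 0.32, interval -0.70 to 0.75).

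IGFBP5 (ENSOARG00000019421, chromosome 2, 217650010 to 217669182) neighbours IGFBP2 and came next in abundance, at a mean of 392 FPKM. Its FPKM was 525, 404 and 348 in CON, 352, 354 and 306 in LOW, and 495, 473 and 272 in HIGH. The groups overlapped in every comparison, and the log2 fold changes were -0.03 in HIGH versus CON, -0.21 in LOW versus CON and 0.19 in HIGH versus LOW (SE 0.22 each). The ratio of IGFBP2 to IGFBP5 ran from 0.989 in HIGH replicate 1 to 4.03 in CON replicate 3 and overlapped between all groups. An assembled locus without a symbol, XLOC_101303, overlaps IGFBP5 and was listed at 15.8 to 25.7 FPKM, and use of strand in counting is not given in the sources used here, so reads of such overlapping loci could have been split between them.

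IGFBP4 had the narrowest range of the members listed above 0, 1.37 times over the 9 libraries. IGFBP4 (ENSOARG00000014604, chromosome 11, 40250021 to 40260382), the binding protein cleaved by the protease PAPP-A in growing follicles, had an FPKM of 54.5, 51.9 and 48.6 in CON, 39.8, 45.9 and 40.5 in LOW, and 53.6, 50.4 and 44.4 in HIGH. All LOW libraries lay below all CON libraries, whereas HIGH overlapped both. LOW versus CON was -0.19 (SE 0.11, interval -0.45 to 0.06, adjusted p = 1.00), HIGH versus LOW was 0.17 and HIGH versus CON was -0.02, with the same SE. XLOC_036074 overlaps IGFBP4 and was listed at 3.19 to 6.21 FPKM.

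IGFBP6, which prefers IGF2 over IGF1, followed IGFBP2. IGFBP6 (ENSOARG00000016699, chromosome 3, 133213116 to 133217044) had an FPKM of 45.3, 64.1 and 98.5 in CON, 56.9, 59.5 and 58.2 in LOW, and 31.3, 41.7 and 61.0 in HIGH. HIGH replicates 1 and 2 were again the lowest of all, but HIGH replicate 3 lay above all LOW libraries and above CON replicate 1, so the groups overlapped. The log2 fold change was -0.57 in HIGH versus CON (SE 0.33, interval -1.31 to 0.17), -0.50 in HIGH versus LOW (SE 0.33, interval -1.24 to 0.25) and -0.07 in LOW versus CON. The ratio of IGFBP2 to IGFBP6 stayed within 14.2 to 17.8 in all 9 libraries, while each gene alone varied by 2.86 and 3.15 times.

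IGFBP3 had the lowest unadjusted p of the family, in LOW versus CON. IGFBP3 (ENSOARG00000012862, chromosome 4, 76176920 to 76178860), the main IGF carrier of serum, was scarce in these cells, with an FPKM of 2.32, 1.52 and 2.19 in CON, 1.27, 1.27 and 0.766 in LOW, and 1.21, 1.11 and 2.09 in HIGH. Every LOW library was below every CON library, and HIGH replicate 3 stood with CON while the other two HIGH libraries stood with LOW. LOW versus CON was -0.73 (SE 0.31, interval -1.42 to -0.04, limma), with an interval that leaves out 0, but the adjusted p was 1.00 over all genes tested. HIGH versus CON was -0.41 (SE 0.31) and HIGH versus LOW was 0.32 (SE 0.31). Among 11014 genes, CA5A (Pearson's r 0.857, Spearman's rho 0.78) and ENHO (r 0.856, rho 0.77) were among those with a pattern most like that of IGFBP3 over the 9 libraries.

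IGFBP7 varied most apart from IGF2, and its groups overlapped widely. IGFBP7 (ENSOARG00000005761, chromosome 6, 72374391 to 72494160), a secreted matrix protein, had an FPKM of 427, 59.0 and 203 in CON, 40.6, 119 and 358 in LOW, and 52.4, 323 and 294 in HIGH, a range of 10.5 times. Each group held both low and high libraries, and the log2 fold changes of 0.03, -0.42 and 0.45 in HIGH versus CON, LOW versus CON and HIGH versus LOW had an SE of 0.98. The 7 transcript models of the gene differed in how they varied between libraries. IGFBP7-201, the Ensembl model, had an FPKM of 399, 2.17 and 178 in CON, 3.00, 98.7 and 326 in LOW, and 1.13, 286 and 257 in HIGH. The longer assembled model TCONS_00257104 had 9.82, 51.9 and 4.97 in CON, 29.9, 8.98 and 18.6 in LOW, and 44.6, 14.5 and 23.9 in HIGH, with its 3 highest values in the 3 libraries where IGFBP7-201 was nearly lost. In the deposited gene read count table the same gene ranged only over 1026 to 1477 once each library was divided by its factor. That table was checked against FPKM only for genes with 1 transcript. Which of the 2 ranges is nearer to the RNA level of IGFBP7 was not tested. The read count table gave log2 fold changes of IGFBP7 of 0.04 in LOW versus CON by limma and by edgeR, against -0.42 on FPKM. POLR2B, a subunit of RNA polymerase II, overlaps the IGFBP7 interval and was listed at 28.0 to 44.0 FPKM, and its part in the IGFBP7 values was not tested.

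**Figure D2:**
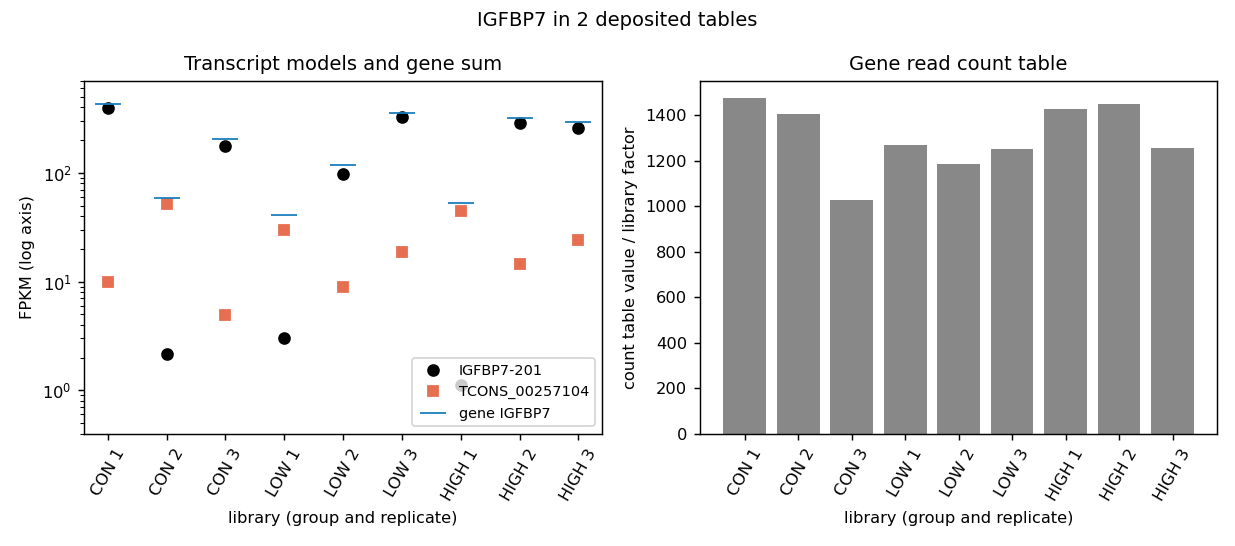
IGFBP7 in each library (horizontal axes). On the left, FPKM on a log axis of IGFBP7-201, of TCONS_00257104 and of the gene; on the right, the value of the gene read count table divided by the library factor (bars from 0), which stays between 1026 and 1477 while the gene FPKM ranges from 40.6 to 427.

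By mean FPKM, which is per length of transcript, the members were ordered IGFBP2 (929), IGFBP5 (392), IGFBP7 (208), IGFBP6 (57.4), IGFBP4 (47.7), INSR (21.1), IGF1R (19.2), IGFBP3 (1.53), IGF2 (0.121) and IGF1 (listed at 0). Only the steps from IGFBP4 to INSR, from IGF1R to IGFBP3 and from IGFBP3 to IGF2 separated neighbours whose ranges over the 9 libraries did not overlap. The other neighbours overlapped, although IGFBP2 exceeded IGFBP5 in 8 of 9 libraries and INSR exceeded IGF1R in 8 of 9. IGFBP2 made up 42.9 to 66.7% of the summed FPKM of the 6 binding proteins, IGFBP5 16.3 to 44.1% and IGFBP7 2.88 to 23.2%. In CON, LOW and HIGH the sum itself was 1585 to 2102, 1411 to 1772 and 1123 to 1662 FPKM, with overlap between all groups. Without IGFBP7 the CON, LOW and HIGH libraries had sums of 1417 to 1899, 1370.2 to 1475 and 1070 to 1368, so every HIGH library lay below all others, the nearest by a small margin. After scaling, that sum ran over 1275 to 1940 in CON, over 1382 to 1541 in LOW, and over 1065 to 1431 in HIGH, and the groups overlapped.

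**Figure D3:**
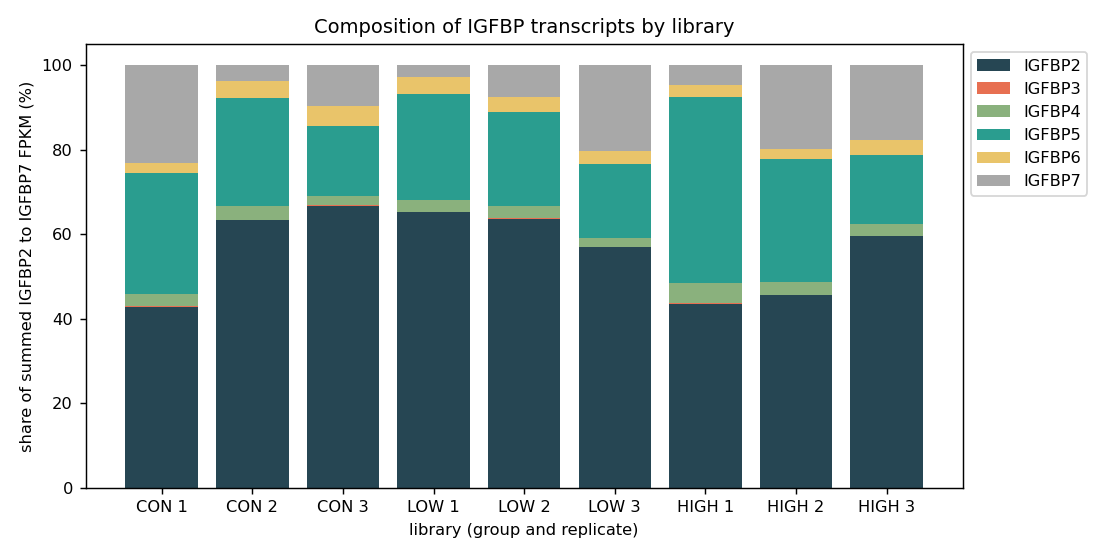
Share (%) of each binding protein in the summed FPKM of IGFBP2 to IGFBP7 for every library. IGFBP2 and IGFBP5 together dominate all 9 bars, the IGFBP5 share is highest in HIGH replicate 1 (44.1%), and IGFBP7 shares vary from 2.88 to 23.2% within and across the groups.

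Of the 10 members, 9 passed the filter on low values and were tested among 24365 genes, and IGF1 did not. A call required an adjusted p under 0.05 together with a log2 fold change beyond 1 in either direction, and limma called 0 of them in each of the 3 comparisons, where 2 genes of the whole table were called per comparison (0.00821%). At an unadjusted p under 0.05, 0 members passed in HIGH versus CON (6.77% of all genes), 1, IGFBP3, in LOW versus CON (1.83%) and 0 in HIGH versus LOW (7.67%). Groups did not overlap for 0 of 9 members in HIGH versus CON (9.4% of all genes), for 2 of 9, IGFBP3 and IGFBP4, in LOW versus CON (6.07%, with LOW lower for 3.06%) and for 0 of 9 in HIGH versus LOW (18.9%). The comparisons share groups and are not independent of each other. The median log2 fold change of the 9 members was -0.02 in HIGH versus CON, -0.07 in LOW versus CON and 0.32 in HIGH versus LOW, beside 0.07, 0.01 and 0.06 over all genes tested. EdgeR's quasi-likelihood test and DESeq2 on the gene read count table also called 0 members in each comparison. For genes with 1 transcript that table restated FPKM, so neither test is an independent check on counts. At an unadjusted p under 0.05, edgeR had 0, 0 and 1 members and DESeq2 1, 1 and 2 in HIGH versus CON, LOW versus CON and HIGH versus LOW, with a lowest adjusted p of 0.0920 for IGF1R in HIGH versus LOW by DESeq2. Over all genes those shares were 5.51%, 1.83% and 6.74% for edgeR and 11.3%, 4.08% and 12.7% for DESeq2. Leaving out single libraries changed the count at an unadjusted p. Without HIGH replicate 3, 5 members passed an unadjusted p of 0.05 and 6 did not overlap in HIGH versus CON, and without CON replicate 1, 4 members passed and 2 did not overlap, while without CON replicate 3 or HIGH replicate 1, 0 passed. Over all genes, 13.7% passed and 28.8% did not overlap without HIGH replicate 3, and 26.1% passed and 35.6% did not overlap without CON replicate 1. In HIGH versus LOW, 5 members passed and 6 did not overlap without HIGH replicate 3, beside 16% and 52.3% of all genes. IGFBP3 in LOW versus CON no longer had an unadjusted p under 0.05 without CON replicate 1, CON replicate 3, LOW replicate 1 or LOW replicate 3.

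**Figure D4:**
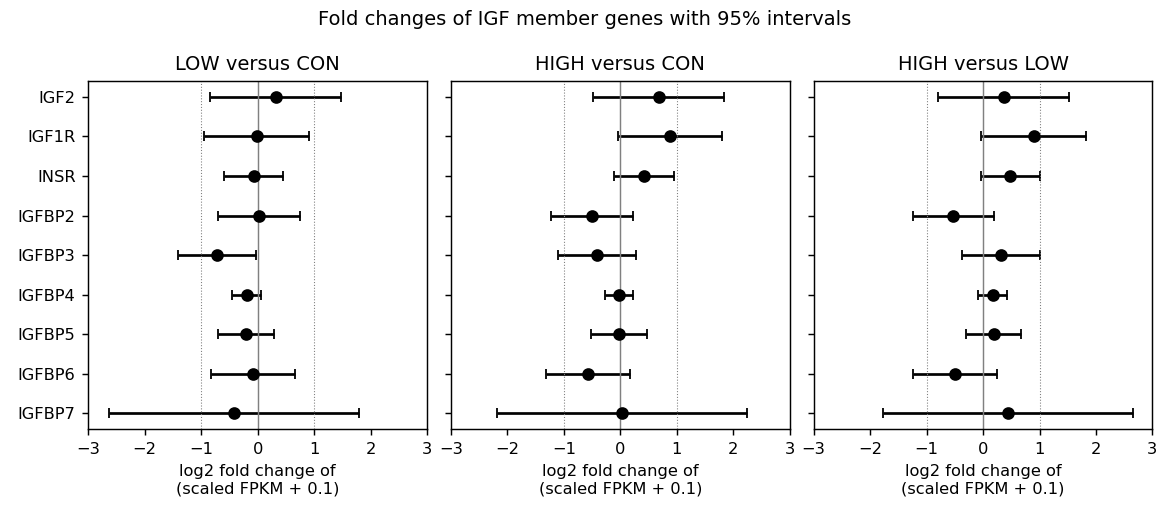
Log2 fold changes on the log2(scaled FPKM + 0.1) scale (horizontal axes) of the 9 tested members in each comparison, with 95% intervals from limma; dotted lines mark the call limit of 1 in either direction. Only the interval of IGFBP3 in LOW versus CON (-1.42 to -0.04) leaves out 0, and it does so before adjustment.

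IGF1R, INSR, IGFBP2 and IGFBP6 varied among replicates in a shared or reversed order. A value was computed for each library as the median log2 FPKM of 1330 genes with a genomic span of 100000 bases or more minus that of 1992 genes under 10000 bases, all with a symbol and an FPKM of 1 or more in every library and members left out. It was chosen after the values were seen. The value was 0.08, -0.37 and -0.95 in CON, -0.21, -0.46 and -0.38 in LOW, and 0.11, -0.07 and -0.36 in HIGH. It was highest in HIGH replicate 1 and lowest in CON replicate 3, the same libraries that held the extremes of IGF1R, INSR, IGFBP2 and IGFBP6. Over the 9 libraries IGF1R rose with it (r 0.938, rho 0.967, exact permutation p = 0.000127 and 0.000165), and r was 0.912 without CON replicate 3 and HIGH replicate 1. INSR rose with it as well (r 0.934, rho 0.967, exact permutation p = 0.000237 and 0.000165), and r was 0.911 without those libraries. IGFBP2 fell with it (r -0.924, rho -0.95, exact permutation p = 8.5e-05 and 0.000353), and r was -0.954 without them. IGFBP6 fell with it too (r -0.962, rho -0.83, exact permutation p = 0.000127 and 0.00827), and r was -0.930 without them. Among 9 such relations, BH adjusted p-values of r were 0.00038, 0.000533, 0.00038 and 0.00038 for these 4 genes, 0.00364 for IGF2 (r 0.883, 0.702 without those libraries) and 0.0956 or more for IGFBP3, IGFBP4, IGFBP5 and IGFBP7. Within groups the relation held, since the deviations from group means gave r of 0.961 for IGF1R, 0.961 for INSR, -0.921 for IGFBP2 and -0.959 for IGFBP6. It was no mark of the family, because r was 0.9 or more for 13.9% of all tested genes and -0.9 or less for 7.72%. RPS3, a ribosomal protein gene, likewise ran from 408 FPKM in HIGH replicate 1 to 1305 in CON replicate 3. The share of summed FPKM listed for small RNAs also differed, at 52.0, 64.8 and 68.6% in CON, 67.0, 69.4 and 72.1% in LOW, and 30.2, 50.7 and 68.2% in HIGH.

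The long-minus-short value was also used as a covariate in the fit, an alternative added after the values were seen. IGF1R then differed by 0.33 in HIGH versus CON (limma adjusted p = 0.554) and by 0.46 in HIGH versus LOW (limma adjusted p = 0.275). The same fit gave INSR 0.13 and 0.25, IGFBP2 -0.13 and -0.23, and IGFBP6 -0.14 and -0.15. Those 4 genes thus kept their directions in both HIGH comparisons at a smaller size, and 0 members were called. At an unadjusted limma p under 0.05, 1, 2 and 2 members passed in HIGH versus CON, LOW versus CON and HIGH versus LOW. Over all genes those shares were 8.95%, 6.45% and 13.5%. IGFBP3 in LOW versus CON was -0.70 with the covariate (limma adjusted p = 0.773), close to its value without it, and IGFBP4 was -0.19 (limma adjusted p = 0.773). What sets the value of a library was not tested.

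**Figure D5:**
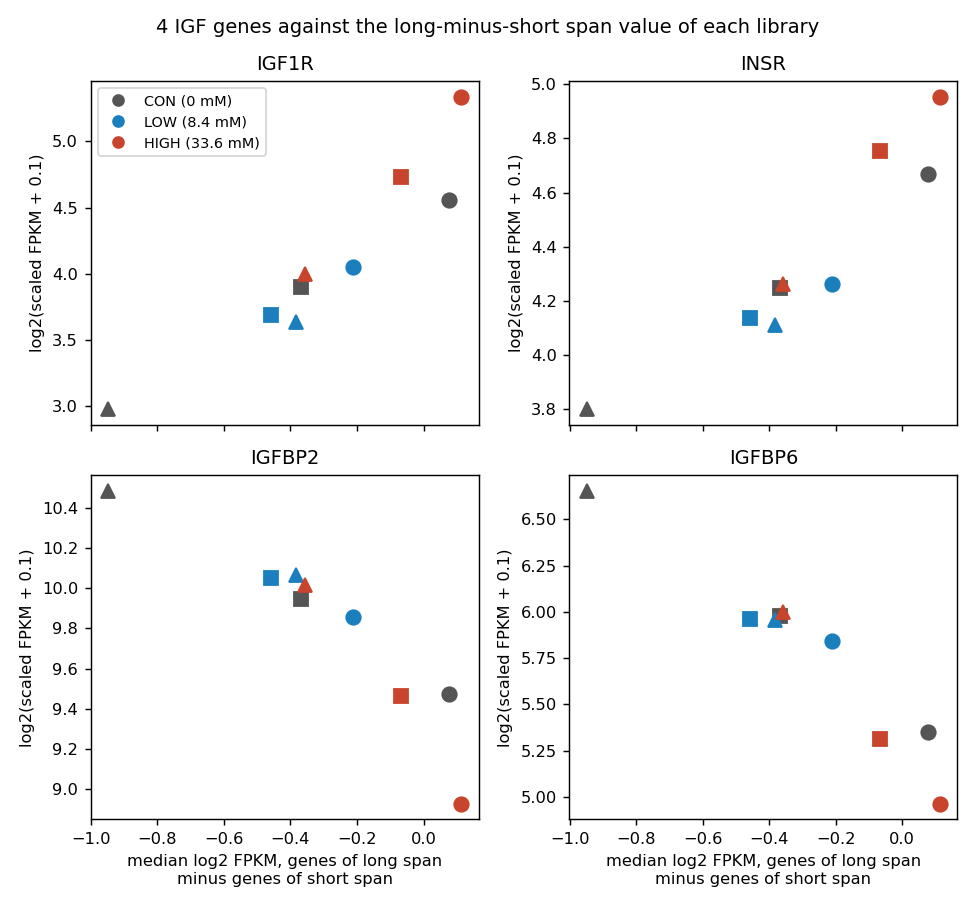
Log2(scaled FPKM + 0.1) of IGF1R, INSR, IGFBP2 and IGFBP6 (vertical axes) against the median log2 FPKM of genes of long span minus that of genes of short span in each library (horizontal axes). Colours are glucose groups and circles, squares and triangles are replicates 1, 2 and 3. The receptors rise (r 0.938 and 0.934) and IGFBP2 and IGFBP6 fall (r -0.924 and -0.962) along this value, on which the groups overlap. For IGF1R, HIGH replicate 2 (26.4 scaled FPKM at -0.07) lies above CON replicate 1 (23.4 at 0.08).

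Some member genes varied together, or in opposite directions, over the 9 libraries. Of 36 pairs of members, 11 had a BH adjusted exact permutation p of r under 0.05, 4 positive and 7 negative. Apart from IGFBP2 with IGFBP5, these were pairs among IGF2, IGF1R, INSR, IGFBP2 and IGFBP6. Those genes had a BH adjusted p under 0.05 against the long-minus-short value. Against that value r was 0.9 or more for 13.9% of all tested genes and -0.9 or less for 7.72%. The share of such pairs over all genes was not computed, and the part of the long-minus-short value in them was not tested. IGF1R and INSR were tied most closely (r 0.991, rho 1.0, exact permutation p = 3e-06 and 6e-06, BH adjusted 9.9e-05 and 0.000198), and r was 0.988 without the 2 farthest libraries. IGF1R ran against IGFBP2 (r -0.989, rho -0.98, exact permutation p = 2.2e-05 and 5e-05, BH adjusted 0.000265 and 0.000595), and r was -0.969 without the 2 farthest libraries. IGFBP2 and IGFBP6 went together (r 0.982, rho 0.85, exact permutation p = 9.4e-05 and 0.00607, BH adjusted 0.000843 and 0.0243), and r was 0.982 without the 2 farthest libraries. IGFBP3, IGFBP4 and IGFBP7 belonged to 0 of the 11 pairs.

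Transcript models were examined next, since models of a gene can move apart. The members had 23 models, of which 18 were tested among 39471, and limma called 0 of them in any comparison, where 11, 11 and 14 transcripts of the whole table were called in HIGH versus CON, LOW versus CON and HIGH versus LOW (0.0279%, 0.0279% and 0.0355%). The 3 models of IGF1R were highest on average in HIGH. IGF1R-201 had an FPKM of 14.6, 9.10 and 4.58 in CON, 8.11, 7.30 and 6.51 in LOW, and 24.4, 16.5 and 8.88 in HIGH. All HIGH libraries lay above all LOW libraries. Its log2 fold change in HIGH versus LOW was 1.02 (SE 0.42, adjusted p = 0.713). TCONS_00110113, an assembled model at lower coordinates (6919822 to 7159951) that meets IGF1R-201 only at its edge, had 1.42, 0.768 and 0.699 in CON, 0.823, 0.500 and 0.720 in LOW, and 1.93, 1.63 and 1.06 in HIGH. It too stood apart in HIGH versus LOW, by 1.01 (SE 0.32, adjusted p = 0.661). The groups of the third model, TCONS_00106071, overlapped in all comparisons. XLOC_080479, an assembled locus without a symbol that lies inside the IGF1R interval, had 3.78 to 8.16, 4.09 to 4.63 and 5.02 to 9.56 FPKM in CON, LOW and HIGH. In HIGH versus LOW 2 of the 18 models did not overlap, and 16.3% of all transcripts did not.

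Of the INSR models, INSR-201 held nearly all of the FPKM, and the minor model INSR-202 had 1.02, 1.01 and 0.539 in CON, 1.45, 0.796 and 1.10 in LOW, and 1.41, 1.71 and 1.20 in HIGH. All HIGH libraries of INSR-202 lay above all CON libraries, by 0.78 (SE 0.30, adjusted p = 0.741). IGFBP6-201 had 10.4, 17.5 and 21.3 in CON, 9.72, 15.0 and 10.5 in LOW, and 6.86, 9.70 and 9.87 in HIGH, a log2 fold change of -0.78 in HIGH versus CON (SE 0.31, adjusted p = 0.741). The more abundant IGFBP6 model TCONS_00213652 (24.1 to 64.1 FPKM) differed by -0.43 there (SE 0.31). TCONS_00213650, a rare IGFBP6 model at 0 to 0.120 FPKM in CON, had 0.129, 0.380 and 3.69 in LOW, which gave 2.57 in LOW versus CON (SE 1.05, adjusted p = 1.00), a value that rests mostly on LOW replicate 3. In HIGH versus CON 2 of 18 models did not overlap (9.44% of all transcripts), and in LOW versus CON 3 of 18 (7.04%). IGFBP2 was carried by 1 of its 2 models alone, and the other was listed at 0 in all libraries.

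The wider pathway was read from lists of 65 genes, of which 54 were in the table and 46 passed the filter. Limma called 0 of them in each comparison. At an unadjusted p under 0.05, 4 were higher (STC2, IGF2R, CCN1 and TSC2) and 1 lower (ESM1) in HIGH versus CON, 0 higher and 1 lower (FOXO4) in LOW versus CON, and 6 higher (STC2, IGF2R, CCN1, CCN2, TSC2 and PDPK1) and 0 lower in HIGH versus LOW. Over all genes, 4.1% were higher and 2.67% lower in HIGH versus CON, 0.928% and 0.903% in LOW versus CON, and 5.21% and 2.46% in HIGH versus LOW. Groups did not overlap for 3, 1 and 13 of the 46 (6.52%, 2.17% and 28.3%, beside 9.4%, 6.07% and 18.9% of all genes), and the median log2 fold change was 0.16, -0.03 and 0.16. By edgeR 0 of them were called, and by DESeq2 2 were called in HIGH versus CON (STC2 and ESM1), 0 in LOW versus CON and 1 in HIGH versus LOW (ESM1), where DESeq2 called 0.731%, 0.685% and 1.41% of all genes. Both tools ran on the read count table, which did not hold counted reads. Their p-values therefore assume a count noise that these values need not have.

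STC2, a secreted inhibitor of the IGFBP protease PAPP-A, had the lowest p of the pathway genes. Its FPKM was 0.766, 0.707 and 0.876 in CON, 1.10, 0.776 and 1.05 in LOW, and 1.86, 2.03 and 1.60 in HIGH, every HIGH library above all others. HIGH versus CON was 1.16 (SE 0.21, limma adjusted p = 0.418) and HIGH versus LOW was 0.80 (SE 0.21). DESeq2 on the read count table gave 1.20 in HIGH versus CON (adjusted p = 3.44e-06), with the same limit as its other calls. STC1, its paralog, was far more abundant at 67.0 to 104 FPKM and differed by -0.30 in HIGH versus CON (SE 0.14). Among the proteases that can cleave IGFBPs, HTRA1 was listed at 388 to 665 FPKM and ADAM9 at 22.7 to 48.3. For these 2 genes the groups overlapped in every comparison. PAPPA, the gene of PAPP-A, had a mean of 6.97 FPKM. After scaling, its HIGH libraries all lay above its LOW libraries, by 0.52 (SE 0.25, limma adjusted p = 0.632). Before scaling, HIGH replicate 3 (6.29) lay below LOW replicate 1 (6.36). In HIGH versus CON, PAPPA differed by 0.57 (SE 0.25, limma adjusted p = 0.651), and the groups overlapped.

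IGF2R, the receptor that clears IGF2, had an FPKM of 8.74, 5.02 and 2.78 in CON, 4.57, 4.05 and 3.55 in LOW, and 15.6, 11.2 and 4.88 in HIGH. HIGH lay above LOW, by 1.16 (SE 0.43, adjusted p = 0.621), and overlapped CON, with 0.96 (SE 0.43). IGFALS, the partner of IGFBP3 in serum, stayed at 0.103 to 0.212, and IGFBP1 was listed at 0 in all libraries. Of the CCN proteins, which share a domain with IGFBPs, CCN1 had 71.6, 45.4 and 21.8 in CON, 52.8, 40.9 and 38.1 in LOW, and 132, 83.1 and 55.1 in HIGH, with 1.07 in HIGH versus CON (SE 0.39, adjusted p = 0.651) and 0.90 in HIGH versus LOW. CCN2 differed by 0.65 in HIGH versus LOW (SE 0.29), and CCN3 stayed at 2.51 to 4.12 FPKM. ESM1 was near the FPKM minimum, at 0.147, 0.0757 and 0.142 in CON and 0.135, 0 and 0.0928 in LOW, and was listed at 0 in all HIGH libraries, so no fold is given. IGF2BP2, an RNA-binding protein named for IGF2 mRNA, had an FPKM of 0.679 to 2.79.

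Below the receptors, the adaptors IRS1, SHC1 and GRB14 had means of 24.7, 20.7 and 17.9 FPKM, and 0 of the 9 adaptors tested passed an unadjusted p of 0.05 in any comparison. In the PI3K relay, TSC2, a brake on mTOR signalling, was 0.59 in HIGH versus CON (SE 0.24) and 0.74 in HIGH versus LOW (SE 0.24). PDPK1, the kinase that activates AKT, was 0.27 in HIGH versus LOW (SE 0.11), and FOXO4, a transcription factor held back by AKT, was -0.38 in LOW versus CON (SE 0.16, adjusted p = 1.00). PIK3CA, PIK3R1 and RHEB, the other members of this relay named by abundance, had means of 44.8, 23.8 and 47.7 FPKM and passed no test. In the RAS and ERK relay 0 of 8 genes passed an unadjusted p of 0.05, with NRAS at a mean of 29.4 FPKM.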

How the data were processed

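Total RNA depleted of rRNA was sequenced in 9 libraries. The authors aligned clean reads with Hisat2, assembled them with Stringtie and deposited FPKM per gene and per transcript, with read count tables for both; the submitters' processing notes also list TopHat2, STAR 2.5.1b and HTSeq 0.6.0. The genome build and the use of strand are not given in the sources used here. The deposited read count tables were taken as estimated counts: for genes with 1 transcript, 100% lay within 3 percent of FPKM times genomic span times a library factor, and table totals were 8.25 to 9.38 times the fragments these factors imply. They were used only for alternatives, rounded to whole numbers where needed, and to read depth.

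Libraries were scaled on the median of genes with an FPKM of 1 or more in all 9. A gene was tested if it spanned at least 300 bases and reached an FPKM of 0.1 in 3 or more libraries. Tests were made in R 4.3.3 with limma 3.58.1, using its trend option, on log2(FPKM + 0.1), with the 3 groups and all 9 libraries in 1 model. P-values were adjusted by BH over all genes tested, and a call needed an adjusted p below 0.05 and a log2 fold change beyond 1 in size. For transcripts, Ensembl genes without a symbol carried a library factor of their own, which was first removed using the gene table. The code was tested on simulated data. Correlations used exact two-sided permutation of the 9 libraries (Python 3.11.15, scipy 1.17.1). Alternatives were edgeR 4.0.16, DESeq2 1.42.0, another pseudocount, filter or scaling, only the groups compared, the replicate block and each library left out.

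The members, lists and tests were chosen with earlier results of these data known. Named are all members, pathway genes called or with an unadjusted p under 0.05, and at most 3 others per list by mean FPKM. PAPPA was named in addition, because the text refers to its protein. Sequences were not analysed here. Some genes that this rule names are not reported here.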

Additional observations from a re-analysis of the deposited data

How the results depend on the processing

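Of 510 log2 fold changes of members recomputed under the alternatives, 482 kept their direction and side of the threshold, 28 turned in direction and 0 passed the threshold, and IGFBP3 was the 1 member with no reversal. Members past the threshold numbered 0 in every alternative run, and their transcripts 0 in every alternative run on FPKM, while transcripts were not tested on read count tables. With single libraries left out, group means of IGFBP shares moved by less than the spread between replicates, as did the IGF1R to INSR ratio from summed transcripts. With IGFBP7 left out of the sum, chosen after seeing the data, 4 of 15 mean shares moved by more: IGFBP2 to 69.1% in LOW and 58.3% in HIGH, IGFBP3 to 0.126% in CON and IGFBP6 to 4.10% in LOW. The lowest adjusted p of a member over the alternatives was 0.173 in HIGH versus CON, 0.773 in LOW versus CON and 0.0920 in HIGH versus LOW. Without scaling, IGFBP7 was -0.015 in HIGH versus CON and IGFBP2 was -0.081 in LOW versus CON. In LOW versus CON, IGFBP2 was -0.047 by edgeR and -0.058 by DESeq2, and IGFBP7 was 0.044 by edgeR, 0.029 by DESeq2 and 0.035 by limma on the read count table. With the long-minus-short covariate, IGFBP6 was 0.013 in LOW versus CON and IGF2 was -0.038 in HIGH versus LOW. With each library left out in turn, HIGH versus CON ranged from -0.18 to 0.22 for IGFBP5, from -0.079 to 0.019 for IGFBP4 and from -0.73 to 0.88 for IGFBP7. LOW versus CON then ranged from -0.43 to 0.35 for IGF1R, from -0.29 to 0.15 for INSR, from -0.22 to 0.28 for IGFBP2, from -1.22 to 0.39 for IGFBP7, from -0.019 to 0.67 for IGF2 and from -0.40 to 0.26 for IGFBP6, and HIGH versus LOW from -0.36 to 1.30 for IGFBP7. These leave-out fits kept all other libraries in the model, and the cause of the reversals was not tested.

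Over all genes, calls in HIGH versus CON, LOW versus CON and HIGH versus LOW were 178, 167 and 343 by DESeq2, 10, 8 and 15 by limma on the read count table, and 6, 4 and 4 with the covariate, the last 2 of these settings being chosen after seeing the data. With only the groups compared, calls were 1 in HIGH versus CON and 6 in HIGH versus LOW, and with an FPKM minimum of 1 they were 1 in LOW versus CON and 1 in HIGH versus LOW. With single libraries left out they ranged from 2 to 8 in HIGH versus CON, from 1 to 5 in LOW versus CON and from 1 to 5 in HIGH versus LOW. In the wider pathway, DESeq2 called 2 in HIGH versus CON and 1 in HIGH versus LOW. Replicate numbers shared by the groups were not taken to pair the libraries, since 5 of 9 pairs with the same number, and not all, had a correlation of deviations above 0.1 (-0.0267 to 0.424, other pairs -0.440 to 0.148). As a hint from the data, 6 of 9 libraries correlated best with their own number, and IGF1R and INSR were higher and IGFBP2 lower in HIGH than in CON and in LOW within 3 of 3 numbers. With the replicate block, 4 in HIGH versus CON, 4 in LOW versus CON and 2 in HIGH versus LOW were called over all genes, 0 of them members. At an unadjusted p under 0.05 the block passed 4, 1 and 4 members, beside 15.1%, 2.6% and 16% of all genes. IGF2 was not tested with an FPKM minimum of 1, and its values and those of ESM1 rest on few fragments at this depth.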
